A study of Mus musculus with 37 samples.

Results

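The immediate early response genes examined here were Fos, Fosb, Jun, Junb, Egr1, Ier2, Dusp1 and Atf3, chosen by symbol from the raw count table. All 8 were found among its 35542 genes. RNA-seq was performed on the tailbud, the caudal end of the embryo, from which new somites and later the vertebrae are made, of 37 mouse embryos of embryonic day 8 to 8.5 with 6 to 11 somites, with a library for each embryo. The 21 Smchd1wt embryos were Smchd1 fl/+ and came from control crosses of Smchd1 fl/fl MMTV-Cre +/+ females (without the transgene) with Castaneus males. The 16 Smchd1matΔ embryos were Smchd1 del/+ and came from Smchd1 del/fl MMTV-Cre T/+ females with Castaneus males, in which Cre under the MMTV promoter was active in the oocyte, so that the oocyte supplied no SMCHD1, a repressive chromatin protein. These mothers were themselves heterozygous before Cre acted. All embryos were C57BL/6/Cast F1 hybrids, and the Smchd1matΔ embryos were also heterozygous, so that loss of the oocyte supply and loss of the maternal copy cannot be told apart. There were 4, 4, 3, 3, 4 and 3 Smchd1wt and 4, 3, 2, 2, 3 and 2 Smchd1matΔ embryos at 6, 7, 8, 9, 10 and 11 somites. Smchd1wt embryos were 13 females and 8 males, Smchd1matΔ embryos 11 females and 5 males, and all embryos with 6 somites were female.

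Immediate early genes are transcribed within minutes of a growth factor, a calcium signal or a stress, from factors already present in the cell, and their transcripts are short-lived. Serum response factor with its ETS partners and the cyclic AMP response element binding proteins drive most of them through MAP kinase signalling. FOS, FOSB, JUN and JUNB are subunits of the dimeric transcription factor AP-1, EGR1 is a zinc finger transcription factor, and ATF3 is a stress-induced factor related to AP-1. IER2 is a nuclear protein induced with them, and DUSP1 is a phosphatase that switches MAP kinases off. In the presomitic mesoderm FGF and MAP kinase signalling is active, and handling of fresh tissue is a known trigger of these genes.

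Promoter sequences are shown for Fos, the most variable of the members that passed the filter on low counts, for Jun, the member with a somite trend, and for Junb and Dusp1, whose deviations were among the most correlated. They are RefSeq promoters of build GRCm38.p6, written 5′ to 3′ on the gene's strand, from 250 bases before the annotated start through the first 50 transcribed bases. Of the 8 members, 6 were in that table. On either strand, capitals mark the TATA box (TATAAA), the CCAAT box, the cyclic AMP response element (TGACGTCA) and the core of that element (TGACG).
Fos, chr12:85473640-85473939, + strand: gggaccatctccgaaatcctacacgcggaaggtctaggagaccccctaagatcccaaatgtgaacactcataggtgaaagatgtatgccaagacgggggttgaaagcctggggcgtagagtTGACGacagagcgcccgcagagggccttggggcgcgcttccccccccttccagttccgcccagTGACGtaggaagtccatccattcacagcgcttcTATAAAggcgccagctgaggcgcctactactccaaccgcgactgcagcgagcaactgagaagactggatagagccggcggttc
Jun, chr4:95052173-95052472, - strand: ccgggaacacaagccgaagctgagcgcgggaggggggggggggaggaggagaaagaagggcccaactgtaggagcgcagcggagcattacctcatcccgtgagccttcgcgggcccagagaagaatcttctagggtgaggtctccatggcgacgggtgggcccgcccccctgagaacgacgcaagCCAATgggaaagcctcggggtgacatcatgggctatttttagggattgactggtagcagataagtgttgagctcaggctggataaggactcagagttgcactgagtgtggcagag
Junb, chr8:84978699-84978998, - strand: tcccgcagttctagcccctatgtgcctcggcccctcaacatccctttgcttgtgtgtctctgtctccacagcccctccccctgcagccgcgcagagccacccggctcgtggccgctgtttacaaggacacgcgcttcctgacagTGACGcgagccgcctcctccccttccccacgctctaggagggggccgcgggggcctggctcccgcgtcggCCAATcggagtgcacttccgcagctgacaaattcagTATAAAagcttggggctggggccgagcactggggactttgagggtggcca
Dusp1, chr17:26508423-26508722, - strand: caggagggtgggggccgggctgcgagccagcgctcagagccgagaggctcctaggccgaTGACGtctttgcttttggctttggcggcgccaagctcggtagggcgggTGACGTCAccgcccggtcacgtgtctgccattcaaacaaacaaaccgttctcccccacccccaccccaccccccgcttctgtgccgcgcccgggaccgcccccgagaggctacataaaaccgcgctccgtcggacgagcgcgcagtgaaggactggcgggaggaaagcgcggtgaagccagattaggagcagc

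The core TGACG was present in 5 of these 6 promoters, those of Fos, Fosb, Junb, Dusp1 and Atf3, against 20.8% of the 32851 promoters of the same length in the table. Fos held it 2 times, at positions -129 and -66 before the start. Dusp1 held it 3 times, of which 2 overlapped as the full palindrome TGACGTCA at -143, a sequence found in 1.79% of all promoters. TATAAA was present in Fos at -33 and in Junb at the annotated start, against 13.6% of all promoters. CCAAT was present in Jun, Junb and Atf3, against 37.4% of all promoters. Neither the AP-1 site TGANTCA, present in 7.81% of all promoters, nor the CArG box bound by serum response factor, present in 1.63%, was matched in the 6 windows. These matches describe letters in a short window only.

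Total counts per library, in units of 1000000, ranged from 0.916 to 80.6 with a median of 12.8. The shallowest library was Smchd1matΔ replicate 3 at 6 somites. The tailbud markers T, Tbx6, Msgn1 and Cdx2 were present in every library, T at 100 to 362 CPM (counts per 1000000 counts, after TMM normalisation). As a check of genotype, Smchd1 was at 149 ± 23.0 CPM (SD, n = 21) in Smchd1wt and 88.7 ± 13.4 CPM (SD, n = 16) in Smchd1matΔ embryos. Libraries of Smchd1matΔ replicates 1 and 2 at 6 somites stood apart, with 2.77% and 1.82% of counts at a ribosomal RNA locus against 0.176% to 1.28% elsewhere. Their summed formed somite markers (Meox1, Tcf15 and others, Pax1 being at 0 in all libraries) were at 116 and 190 CPM, against 7.63 to 49.5 CPM elsewhere. Results at 6 somites are therefore also given without these 2 libraries that stand apart. In bulk tissue fewer cells of a type and less RNA per cell cannot be told apart.

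**Figure D1:**
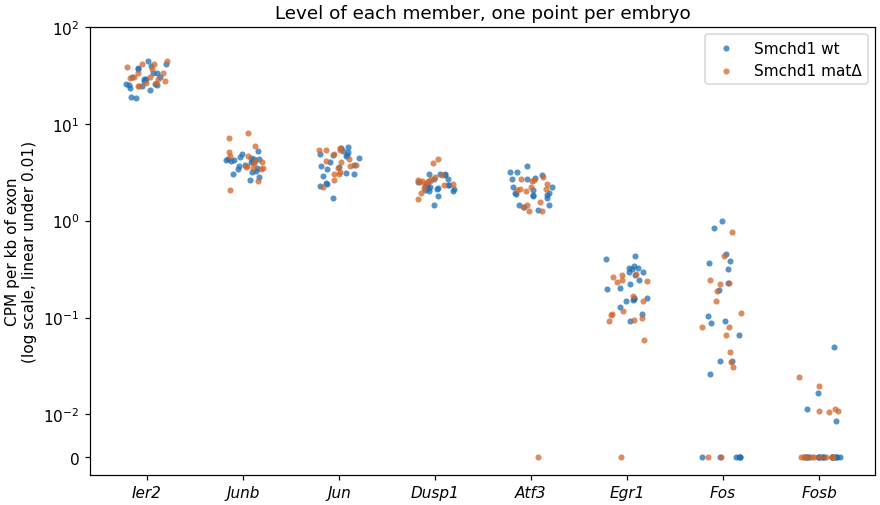
Level of each member per kb of exon in 37 embryos, on a log axis that is linear under 0.01 CPM per kb, with a point for each embryo coloured by genotype. Ier2 lies between 18.4 and 44.2 CPM per kb, above every other member, and Fosb is at 0 in 27 embryos.

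To compare members with each other, CPM was divided by the length of merged exons. Ier2 was the most abundant member, at 30.8 ± 6.92 CPM per kb (SD, n = 37), higher than 89.0% of the 16729 genes that passed the filter on low counts. Its lowest embryo, at 18.4 CPM per kb, lay above the highest value of any other member. Junb (4.10 ± 1.15 CPM per kb), Jun (3.92 ± 1.10), Dusp1 (2.48 ± 0.556) and Atf3 (2.07 ± 0.704) followed. Junb and Jun did not differ beyond their spread, since Junb was the higher in 20 of 37 embryos. Jun was above Dusp1 in 33 embryos and Dusp1 above Atf3 in 27. Egr1 (0.202 ± 0.0998 CPM per kb) and Fos (0.187 ± 0.245) were the lowest apart from Fosb, above 9.25% and 8.43% of genes.

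Fosb was hardly detected, with 15 counts in total, 0 in 27 libraries and at most 4 in any library. It passed the filter in none of the fits, so no fold change or slope is given for it. Fos had 228 counts in total and was at 0 in 8 libraries, where a limit of 3 counts allows 0.179 to 3.27 CPM. Egr1 had 478 counts in total and Atf3 2424, and both were at 0 in the shallowest library, where 3 counts are 3.27 CPM. Jun (7203 counts in total), Junb (5228), Dusp1 (4498) and Ier2 (27725) were counted in every library. These limits and the Poisson intervals below cover counting error only, since no molecular identifiers are described for these libraries.

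In the coordinates of the count table (GRCm38), Fos lies on chromosome 12 (85473890 to 85477273, + strand), Fosb on chromosome 7 (19302696 to 19310051, - strand) and Jun on chromosome 4 (95049034 to 95052222, - strand). Junb (84974484 to 84978718) and Ier2 (84661331 to 84662854) both lie on the - strand of chromosome 8. Egr1 is on chromosome 18 (34859823 to 34864984, + strand), Dusp1 on chromosome 17 (26505590 to 26562128, - strand) and Atf3 on chromosome 1 (191170296 to 191218039, - strand). An exon of Junb shares 173 bases with exons of Prdx2 on the other strand, a gene with 216904 counts in total. If Prdx2 reads lay evenly over its exons, 12303 would fall in the shared bases, more than the 5228 counts of Junb. Whether reads were assigned by strand is not given in the sources used here, so Junb values are uncertain. The deviations of Junb and Prdx2 from their group means had a Pearson r of -0.09 over 37 embryos. Jun shares 232 exon bases with the antisense gene Junos, which had 669 counts in total, and the r of their deviations was 0.40.

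**Figure D2:**
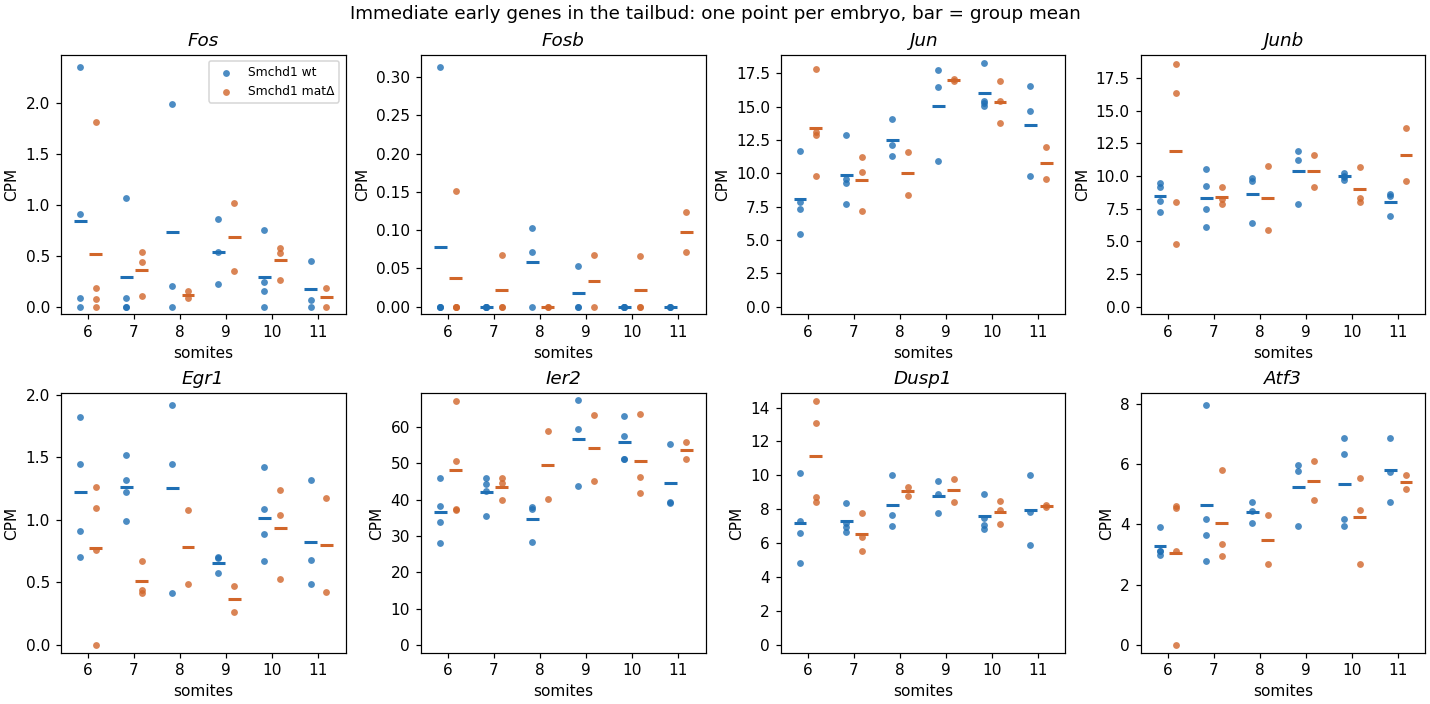
CPM of each member against somite number, with a point for each embryo and a bar for the mean of each genotype at each stage (n = 4, 4, 3, 3, 4 and 3 Smchd1wt and 4, 3, 2, 2, 3 and 2 Smchd1matΔ embryos). Fos is near 0 in most embryos and at 1.01 to 2.35 CPM in 5, while Jun in Smchd1wt embryos has a mean of 8.07 CPM at 6 and 15.98 CPM at 10 somites.

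The per-embryo spread within stage was examined first. Fos was low in most embryos and varied widely between embryos of the same group. At 6 somites the Smchd1wt embryos were at 2.35, 0.910, 0.0829 and 0 CPM, and the Smchd1matΔ embryos at 1.81, 0.0729, 0 and 0.187 CPM. In each genotype 1 embryo lay above the others. The exact Poisson 95% interval of the highest, 1.59 to 3.36 CPM from 30 counts, overlapped that of the next embryo, 0.366 to 1.87 CPM from 7 counts. At 7 somites the Smchd1wt embryos were at 0, 0, 0.0844 and 1.07 CPM and the Smchd1matΔ embryos at 0.104, 0.441 and 0.537 CPM. At 8 somites the Smchd1wt embryos were at 1.99, 0 and 0.207 CPM and the Smchd1matΔ embryos at 0.154 and 0.0816 CPM. Again 1 embryo stood above its group at each of these stages, in Smchd1wt. At 9 somites the Smchd1wt embryos were at 0.219, 0.863 and 0.533 CPM and the Smchd1matΔ embryos at 1.01 and 0.348 CPM. At 10 somites the values were 0, 0.155, 0.243 and 0.751 CPM against 0.525, 0.260 and 0.573 CPM. At 11 somites they were 0, 0.0608 and 0.451 CPM against 0 and 0.186 CPM. Genotypes overlapped at every stage.

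The 5 embryos with Fos at 1 CPM or more, a limit chosen after the values were seen, held 102 of the 228 Fos counts. Fosb had a count in 4 of these 5 embryos and in 6 of the other 32. The embryo with the most Fosb counts, 4 (0.313 CPM), was Smchd1wt replicate 1 at 6 somites, which also had the highest Fos.

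Against the trend of all genes at the same abundance, the biological coefficient of variation (edgeR's estimate of spread beyond counting error) was higher for 2 of the 7 members that passed the filter, against 28.3% of all genes (3 of 7 without Smchd1wt replicate 1 at 10 somites). It was 1.11 for Fos, 1.85 times the trend, a ratio above that of 96.5% of genes. It was 0.178 for Ier2, 1.11 times the trend. Egr1 and Dusp1 were the least variable for their abundance, at 0.669 and 0.663 times the trend. Jun (0.844), Junb (0.957) and Atf3 (0.781) lay under the trend as well. These are descriptions without a test. On the log2 CPM scale the SD within groups was 0.268 for Dusp1, 0.275 for Ier2, 0.306 for Jun and 0.402 for Junb, against a median of 0.306 over genes. For Atf3 it was 0.934, a value that includes its 0 in the shallowest library.

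Among all embryos Ier2 ranged from 27.9 to 67.3 CPM, a span of 2.41 times, Dusp1 from 4.81 to 14.4 CPM (2.98 times), Jun from 5.46 to 18.2 CPM (3.34 times) and Junb from 4.81 to 18.6 CPM (3.86 times). The extremes of Junb both came from Smchd1matΔ embryos with 6 somites, which were at 18.6, 4.81, 16.3 and 8.03 CPM, while the Smchd1wt embryos of that stage lay between 7.28 and 9.45 CPM. The lowest of them, replicate 2, and the highest, replicate 1, are the 2 libraries that stand apart.

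Co-variation was examined next. To ask whether members deviate together in the same embryo, log2 CPM (prior count 2) was centred on the mean of each genotype and stage and correlated over 37 embryos. Significance was assessed by a two-sided permutation test that shuffled embryos within groups, with Benjamini-Hochberg adjustment over the 28 pairs. Of the 28 pairs, 23 were positive, with a median r of 0.25 against 0.019 over all pairs of genes that passed the filter. Without Smchd1matΔ replicate 1 at 6 somites 17 were positive, with a median r of 0.11, and without both libraries that stand apart 18 were, with a median of 0.13. In Smchd1wt embryos alone 18 were positive (median 0.07) and in Smchd1matΔ embryos alone 24 (median 0.42). An r of at least 0.5 was found in 4 of the 28 pairs, against 6.99% of all gene pairs. None passed the adjusted threshold, and 3 lay just beyond it, each with an adjusted p of 0.0504. All 3 passed with RLE size factors and with rank correlation. Without the 2 libraries that stand apart none passed, and their r was 0.55 for Junb with Ier2, 0.49 for Junb with Dusp1 and 0.52 for Fos with Fosb. All 3 passed when any of 3 single libraries was left out, namely replicate 3 or 4 of Smchd1matΔ at 6 somites or replicate 3 of Smchd1wt at 11 somites. Junb with Dusp1 and Fos with Fosb also passed without replicate 1, 2 or 4 of Smchd1wt at 7 or replicate 3 at 8 somites.

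**Figure D3:**
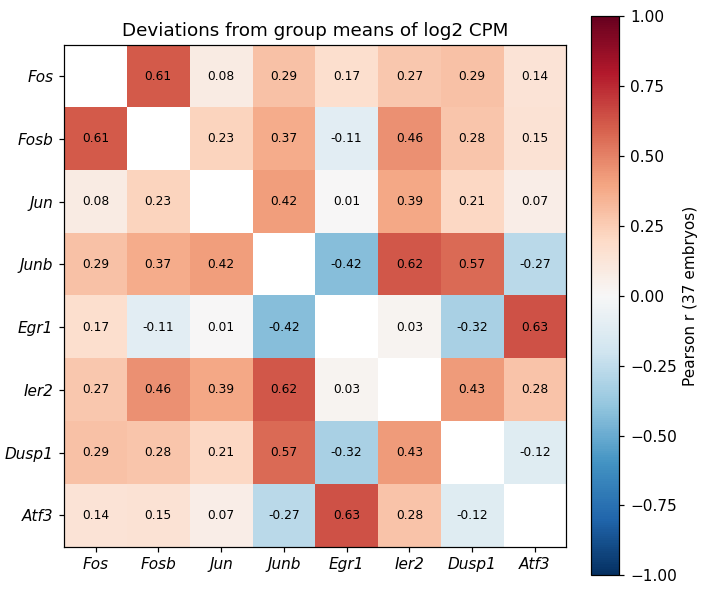
Pearson r between members over 37 embryos, computed on deviations of log2 CPM from the mean of each genotype and stage. The highest values are 0.63 for Egr1 with Atf3, 0.62 for Junb with Ier2, 0.61 for Fos with Fosb and 0.57 for Junb with Dusp1, and the lowest is -0.42 for Junb with Egr1.

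Junb and Ier2 had a Pearson r of 0.62 (permutation p = 0.00540, adjusted p = 0.0504) and a Spearman rho of 0.67 (permutation p = 0.00128, adjusted p = 0.0179). Without the 2 embryos farthest from the median of Junb, r was 0.52. The shallowest library, with 15 counts of Junb and 34 of Ier2, lay off the trend of the others, and without it r was 0.81 over 36 embryos (adjusted p = 0.00280, permutation test). Within Smchd1wt embryos alone r was 0.78 (n = 21, adjusted p = 0.00616, permutation test), and within Smchd1matΔ embryos alone 0.57 (n = 16, adjusted p = 0.561, permutation test). Both genes lie on chromosome 8, and the uncertainty of Junb counts given above holds here too.

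Junb and Dusp1 had an r of 0.57 (permutation p = 0.00372, adjusted p = 0.0504) and a rho of 0.62 (adjusted p = 0.0179, permutation test). Without the 2 embryos farthest from the median of Junb, r was 0.47. It was 0.38 within Smchd1wt and 0.81 within Smchd1matΔ embryos, with adjusted permutation p-values of 0.569 and 0.185. Over these and the other alternatives, leaving out single embryos apart, its adjusted p ranged from 0.0179 to 0.569, that of Junb with Ier2 from 0.00616 to 0.561, and that of Fos with Fosb from 0.0341 to 0.569 (permutation tests). Ier2 and Dusp1, the third pair of these genes, had an r of 0.43 (adjusted p = 0.240, permutation test). Jun had its highest r with Junb, at 0.42 (adjusted p = 0.221, permutation test), and with Ier2, at 0.39.

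Fos and Fosb had an r of 0.61 (permutation p = 0.00335, adjusted p = 0.0504) and a rho of 0.53 (adjusted p = 0.0341, permutation test). Fosb was at 0 in most embryos, and r fell to 0.43 without the 2 embryos farthest from the median of Fos. Fos was less aligned with the other members, with an r of 0.08 with Jun, 0.29 with Junb, 0.29 with Dusp1 and 0.27 with Ier2. Egr1 and Atf3 had an r of 0.63 that rested on the shallowest library, in which both were at 0. Without that library r was -0.07 (adjusted p = 0.800, permutation test).

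**Figure D4:**
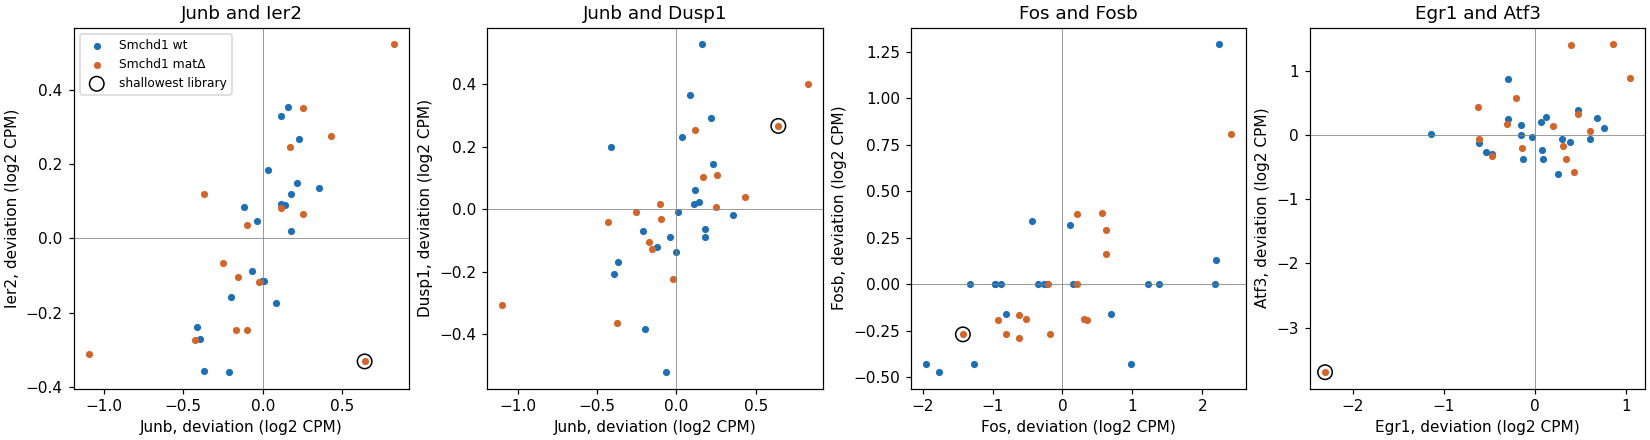
Deviations of log2 CPM from group means for 4 pairs of members, with a point for each of 37 embryos coloured by genotype and the shallowest library circled. The circled library lies off the trend of Junb and Ier2 and sets that of Egr1 and Atf3 (r of 0.63 with it and -0.07 without it).

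The same test was run between each member and 10 measures of the library, in 80 pairs adjusted together. These were total counts, the shares of the ribosomal RNA locus, of mitochondrial genes and of the 10 most counted genes, and summed CPM of 6 marker lists. Of the 80 pairs, 2 passed, both with Jun. Jun rose with the summed endothelial markers (Kdr, Cdh5, Tek and others), with an r of 0.65 (permutation p = 0.00039, adjusted p = 0.0156) and a rho of 0.61 (adjusted p = 0.108, permutation test). It also rose with the summed ectoderm and neural markers (Sox2, Epcam, Krt8 and others), with an r of 0.56 (permutation p = 0.00037, adjusted p = 0.0156). Without the 2 embryos farthest from the median of Jun, the r with these sums was 0.61 and 0.59. Gene by gene, the median r with Jun was 0.41 for endothelial markers, with 8 of 8 positive. For single ectoderm and neural markers that passed the filter it was only 0.06, with 5 of 7 positive, against -0.01 over all genes. The endothelial list summed to 193 to 358 CPM in Smchd1wt and 192 to 430 CPM in Smchd1matΔ embryos, with none of its 8 genes at 0 in all libraries. Within Smchd1wt embryos alone r was 0.83 with endothelial markers (adjusted p = 0.0136, permutation test) and 0.45 with ectoderm and neural markers (adjusted p = 0.344). Within Smchd1matΔ embryos alone it was 0.36 (adjusted p = 0.868, permutation test) and 0.73 (adjusted p = 0.714). Both calls were lost by rank correlation. Both were also lost without any of 8 single libraries, namely Smchd1wt replicate 2 at 6, replicate 4 at 7, replicate 1 at 10 or any replicate at 11 somites, or Smchd1matΔ replicate 1 or 3 at 7 somites, with r still between 0.53 and 0.66. That with endothelial markers was lost without Smchd1wt replicate 3 at 6 somites (r of 0.62), and that with ectoderm and neural markers without Smchd1matΔ replicate 1 at 6 somites (r of 0.48). Ectoderm and neural markers summed to 295 to 602 CPM in Smchd1wt and 317 to 819 CPM in Smchd1matΔ embryos. The Smchd1wt libraries with the highest sums of this list, 602, 567 and 541 CPM, were also the richest in endoderm markers (4256, 3725 and 5100 CPM). In Smchd1matΔ embryos this was not so, the highest sum going with 1714 CPM of endoderm markers against a maximum of 3772 CPM. The sum may thus not mark ectoderm and neural cells alone. The part of the cells behind these lists in Jun levels was not tested.

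Ier2 had an r of 0.47 with log10 total counts (adjusted p = 0.574, permutation test). Egr1, with an r of 0.53 (adjusted p = 0.574), fell to 0.24 without the 2 embryos farthest from the median of Egr1 and to 0.09 without the shallowest library alone. The mitochondrial share and the ribosomal RNA locus share passed with no member.

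Genes whose pattern over the 37 embryos was most like Fos, by Pearson r of centred log2 CPM among genes that passed the filter, were Ldhb (0.70), 1700084F23Rik (0.69), Spn (0.69), Cldn3 (0.68), Elovl7 (0.67), Prl3d2 (0.65), Prl3d3 (0.64), Pde6h (0.64), Lysmd1 (0.62) and Plek2 (0.62). None of these belongs to the list of other immediate early genes. Apart from Ldhb and Elovl7 their mean levels were under 1 CPM, so that few reads carry these values. For several of them 1 embryo lay far above the mean. The highest embryo was at 9.17 CPM for Spn (mean 0.709), 5.59 CPM for Prl3d2 (mean 0.478) and 1.51 CPM for Prl3d3 (mean 0.0934). For Elovl7 it was at 5.41 CPM (mean 3.70). The highest values of Ldhb, 1700084F23Rik, Cldn3, Prl3d2, Prl3d3 and Pde6h fall on whole counts of Smchd1matΔ replicate 1 at 6 somites. In that library 1 count is 0.151 CPM. Those of Spn, Elovl7, Lysmd1 and Plek2 do not. That library is among those that stand apart, and its Fos was at 1.81 CPM. The likeness to Fos was not recomputed without it, so whether the likeness rests on single embryos was not tested. By mean r with the 8 members the genes were Sema3f (0.49), Trim27 (0.47), Crip2 (0.46), Dpp3 (0.46), Psmd3 (0.46), Fpgs (0.45), Map7d1 (0.45), Rpl13 (0.45), Rhob (0.45) and Scand1 (0.45). Of these 10, Rhob, a small GTPase induced by growth factors, is in that list. The highest values of all 10 also fall, within rounding, on whole counts of Smchd1matΔ replicate 1 at 6 somites. For Scand1 the highest was 47.8 CPM (mean 7.84) and for Crip2 48.5 CPM (mean 25.4). This ranking was not recomputed without that library. Leaving that library out lowered the median r of the member pairs from 0.25 to 0.11. Over the 38 other immediate early genes that passed the filter, the median r was 0.17 with Fos, against 0.04 over all genes, and 0.21 with Ier2, against 0.06. With Junb 19 of the 38 were positive. For 11 heat shock genes the median r was 0.06 with Fos and 0.04 with Ier2, and for 11 hypoxia genes -0.10 and 0.20. These are descriptions with no test.

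The trend over somite number was examined in the 21 Smchd1wt embryos. Jun rose with somite number, by 0.18 on the log2 scale per somite (SE 0.043, adjusted p = 0.0116, edgeR over 15148 genes). Its mean was 8.07 ± 2.62 CPM (SD, n = 4) at 6 somites, 9.86 ± 2.19 (n = 4) at 7, 12.5 ± 1.43 (n = 3) at 8, 15.03 ± 3.60 (n = 3) at 9, 15.98 ± 1.51 (n = 4) at 10 and 13.7 ± 3.47 (n = 3) at 11 somites. The values per embryo were 7.29, 5.46, 11.7 and 7.82 CPM at 6 somites and 18.2, 15.4, 15.05 and 15.2 CPM at 10 somites. At 11 somites, with 16.5, 9.79 and 14.7 CPM, 1 embryo lay within the range at 6 somites.

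Jun was the only member of the 7 tested that passed in either direction, against 3.13% of all genes rising and 3.51% falling. It passed when each of the 21 embryos was left out in turn, with adjusted p-values of 0.00216 to 0.0322 (0.000812 to 0.197 over the other alternatives). It did not pass in female embryos alone (0.15 per somite, adjusted p = 0.0749), where 12.2% of all genes did, nor with summed erythroid and endoderm markers as covariates (0.23 per somite, adjusted p = 0.197), where 0.0447% of all genes did. Marker lists moved with stage in the same embryos. Of 12 endoderm markers 4 fell with somite number, of 9 primitive erythroid markers 1 rose, and of 8 endothelial markers 4 rose. Summed endoderm markers ranged from 43.3 to 5100 CPM and erythroid markers from 15.3 to 3886 CPM over the 21 embryos. The part of endothelial cells in the slope of Jun was not tested.

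Atf3 had a slope of 0.15 per somite (SE 0.045, adjusted p = 0.0511, edgeR) and Ier2 of 0.10 per somite (SE 0.037, adjusted p = 0.0932, edgeR). Mean Atf3 was 3.28 ± 0.417 CPM (SD, n = 4) at 6 and 5.79 ± 1.07 CPM (n = 3) at 11 somites. The values per embryo were 2.98, 3.12, 3.90 and 3.13 CPM at 6 somites and 6.88, 4.74 and 5.75 CPM at 11 somites. At 7 somites Atf3 was at 4.19, 7.95, 2.79 and 3.65 CPM, a range that spans both. Mean Ier2 was 36.5 ± 7.59 CPM (n = 4) at 6, 55.8 ± 5.68 CPM (n = 4) at 10 and 44.6 ± 9.32 CPM (n = 3) at 11 somites. Both passed with the Wald test of DESeq2 (adjusted p = 0.0175 and 0.0479), where 9.9% of all genes passed in either direction, and Ier2 passed in females alone (adjusted p = 0.0474). Atf3 also passed without Smchd1wt replicate 2 at 7 (0.17 per somite, adjusted p = 0.0101), replicate 1 at 9 (adjusted p = 0.0450) or replicate 1 at 10 somites (adjusted p = 0.0474). With erythroid and endoderm marker sums as covariates the adjusted p was 0.635 for Atf3 and 0.521 for Ier2. Fos had a slope of -0.37 (SE 0.21, adjusted p = 0.320) and Egr1 of -0.14 (SE 0.071, adjusted p = 0.254), neither past the threshold. With the same covariates the slope of Fos was 0.03. Junb and Dusp1 each had a slope of 0.02 with an SE of 0.035 and 0.036.

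In the 16 Smchd1matΔ embryos none of the 6 members tested passed, against 3.07% of all genes. Jun had a slope of 0.07 per somite (SE 0.057, adjusted p = 0.578, edgeR), Atf3 of 0.09 (SE 0.074, adjusted p = 0.585) and Ier2 of 0.04 (SE 0.038, adjusted p = 0.609). Fos and Fosb did not pass the filter there. Jun was at 17.8, 12.8, 13.1 and 9.76 CPM at 6 somites and at 9.60 and 11.9 CPM at 11 somites. At 6 somites the first 2 values are the 2 libraries that stand apart, and the third is 12 counts in the shallowest library. The slope of Jun lay between 0.04 and 0.12 per somite over 6 alternatives, leaving out single embryos apart. Leaving out the 2 libraries that stand apart was 1 of these. The difference between genotypes in the slope of Jun was -0.13 per somite (SE 0.070, unadjusted p = 0.0713, adjusted p = 0.9998, edgeR), so that a difference in slope was not shown. No member and 0% of all genes passed for that difference. Over the same 6 alternatives the difference for Jun lay between -0.14 and -0.07 per somite.

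**Figure D5:**
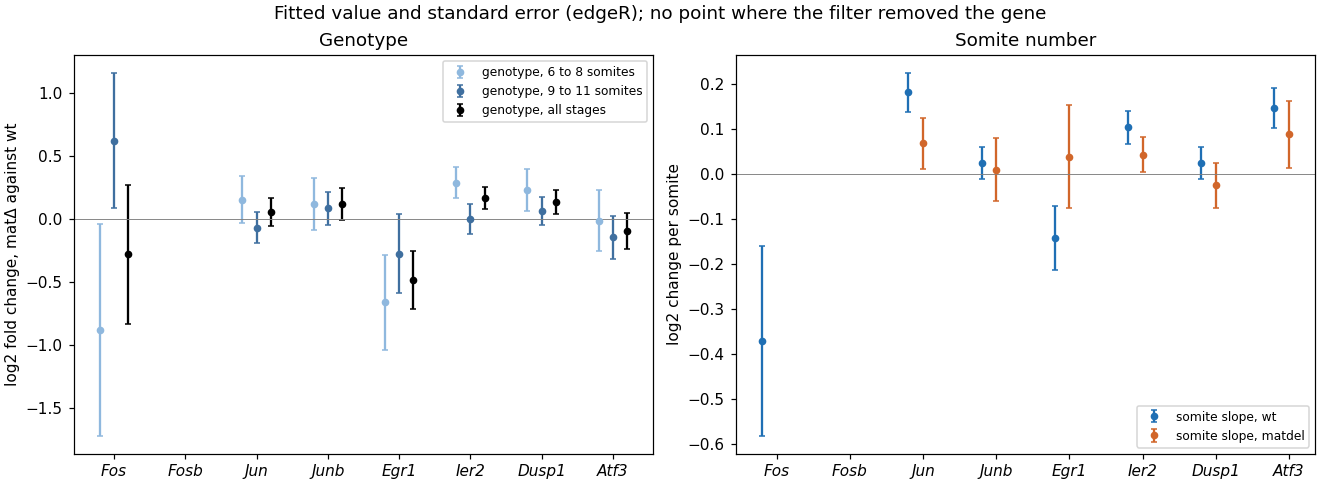
Fitted log2 fold change between genotypes (left, Smchd1matΔ against Smchd1wt) and log2 change per somite in each genotype (right) for each member, as estimate and standard error from edgeR. The slope of Jun in Smchd1wt embryos, at 0.18 ± 0.043, is the only value past the adjusted threshold, and no point is drawn where the filter removed the gene.

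Finally, Smchd1matΔ embryos were compared with Smchd1wt embryos at matched somite number. No member passed over all stages (7 tested, against 0.0125% of all genes), at 6 to 8 somites (0.00639%) or at 9 to 11 somites (0.00635%). None passed for the difference in genotype effect between these windows (0%) or at any single stage (0% of all genes at each). Over all stages the log2 fold changes lay between -0.48 for Egr1 (SE 0.23, unadjusted p = 0.0425, adjusted p = 0.867) and 0.17 for Ier2 (SE 0.090, unadjusted p = 0.0738, adjusted p = 0.872). The median of the 7 members was 0.05, and the median over all genes was within 0.01 of 0. At an unadjusted p under 0.05 there was 1 member of 7, Egr1, against 5.67% of all genes. DESeq2's Wald test called no member in any of these comparisons.

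Among the members that passed the filter at a single stage, Egr1 at 7 somites had the largest log2 fold change. At 7 somites it was at 1.22, 0.993, 1.52 and 1.32 CPM in Smchd1wt and 0.415, 0.441 and 0.671 CPM in Smchd1matΔ embryos. The genotypes did not overlap, and the log2 fold change was -1.32 (SE 0.42, unadjusted p = 0.00875, adjusted p = 0.962, edgeR), with 4.83% of all genes under an unadjusted p of 0.05. At 7 somites the Smchd1wt value of 0.993 CPM came from 3 counts, with a Poisson interval of 0.205 to 2.90 CPM. At 9 somites Egr1 did not overlap either, at 0.705, 0.575 and 0.693 against 0.473 and 0.261 CPM. This was so for 13.1% of the genes that passed the filter. The Smchd1matΔ values came from 7 and 3 counts. Their Poisson intervals, 0.190 to 0.974 and 0.0539 to 0.764 CPM, each included every Smchd1wt value of that stage. The separation at 9 somites thus lay within counting error. At the other stages the genotypes overlapped. Mean Egr1 was 1.22 against 0.778 CPM at 6 and 1.26 against 0.782 CPM at 8 somites. It was 1.01 against 0.936 CPM at 10 and 0.826 against 0.801 CPM at 11 somites. The mean was thus lower in Smchd1matΔ embryos at 6 of 6 stages, at a level of 0 to 58 counts per library. At 6 somites it includes the 0 of the shallowest library, where 3 counts are 3.27 CPM. At 10 and 11 somites mean Egr1 differed by only -0.08 and -0.03 CPM (Smchd1matΔ minus Smchd1wt). In female embryos alone its all-stage fold change was -0.01 on the log2 scale (adjusted p = 0.998, against 0.736 to 0.9998 over the 8 alternatives other than leaving out single embryos). At 7 somites 9 of 12 endoderm markers also had an unadjusted p under 0.05, with a median log2 fold change of -1.04, and their part in Egr1 levels was not tested.

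At 6 to 8 somites Ier2 had a log2 fold change of 0.29 (SE 0.12, unadjusted p = 0.0265, adjusted p = 0.570, edgeR), and 7.77% of all genes were under an unadjusted p of 0.05. At 8 somites Ier2 was at 38.1, 28.4 and 37.3 CPM in Smchd1wt and 58.8 and 40.1 CPM in Smchd1matΔ embryos, which did not overlap (log2 fold change 0.51, SE 0.21, unadjusted p = 0.0383, adjusted p = 0.999, edgeR, with 2.81% of all genes under 0.05). All Smchd1matΔ embryos of that stage were female, while Smchd1wt replicates 1 and 2 were male. With sex as a covariate the value was 0.41 (unadjusted p = 0.247). Without Smchd1matΔ replicate 1 it was 0.21. In the same embryos 8 of 9 primitive erythroid markers had an unadjusted p under 0.05, with a median log2 fold change of -2.90, and their part in Ier2 levels was not tested.

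At 6 somites Jun had a log2 fold change of 0.74 (SE 0.31, unadjusted p = 0.0298, adjusted p = 0.862, edgeR) and Ier2 of 0.44 (SE 0.21, unadjusted p = 0.0493, adjusted p = 0.862), with 5.54% of all genes under an unadjusted p of 0.05. Dusp1 had a value of 0.60 (SE 0.32, adjusted p = 0.862), from 7.29, 6.63, 10.1 and 4.81 CPM against 14.4, 8.75, 13.1 and 8.41 CPM, which overlap. Without the 2 libraries that stand apart, the values were 0.43 for Jun, 0.34 for Ier2 and 0.47 for Dusp1, each with an adjusted p of 0.9999. The 3 formed somite markers that passed the filter at 6 somites had a median log2 fold change of 2.04 between genotypes, and their part in these values was not tested. At 11 somites Junb was at 6.94, 8.63 and 8.46 CPM in Smchd1wt and 13.6 and 9.59 CPM in Smchd1matΔ embryos, which did not overlap. Its log2 fold change was 0.54 (SE 0.22, unadjusted p = 0.0352, adjusted p = 0.567, edgeR), with 8.66% of all genes under 0.05, and it was 0.26 without Smchd1matΔ replicate 1. At that stage 9 of 9 primitive erythroid markers had an unadjusted p under 0.05, with a median log2 fold change of 1.81, and their part in Junb levels was not tested. Fosb was at 0 in the 3 Smchd1wt and at 0.0711 and 0.124 CPM in the Smchd1matΔ embryos of that stage, from 1 and 2 counts.

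The genotypes did not overlap for 0 members at 6, 1 at 7, 1 at 8, 1 at 9, 0 at 10 and 2 at 11 somites. Of the 2 members at 11 somites 1 was Fosb, which did not pass the filter. Among the genes that passed the filter this was so for 3.33%, 5.65%, 16.3%, 13.1%, 2.01% and 26.3%.

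Other genes of the same pathways were examined from lists of names. None of 38 other immediate early genes, 17 regulators of serum response and AP-1, 11 heat shock or 11 hypoxia genes passed for genotype over all stages, and their median log2 fold changes were -0.01, -0.02, 0.05 and 0.09. With somite number in Smchd1wt embryos, 2 of 36 other immediate early genes rose and 2 fell, against the 3.13% and 3.51% of all genes given above. Btg2, an antiproliferative gene, rose by 0.29 per somite (SE 0.032, adjusted p = 1.26e-05, edgeR), and Klf2, a transcription factor of endothelium, rose by 0.50 (adjusted p = 0.0213). Dusp5, a phosphatase of ERK, fell by 0.14 per somite (adjusted p = 0.00634) and Sgk1, a kinase, fell by 0.28 (adjusted p = 0.00878). In Smchd1matΔ embryos Btg2 also rose, by 0.30 per somite (adjusted p = 0.000689), as did Dusp6, another ERK phosphatase, by 0.11 (adjusted p = 0.0374), and Dusp5 fell by 0.13 (adjusted p = 0.0126). That was 2 rising and 1 falling of 37 tested, against 1.93% of all genes rising and 1.14% falling in that genotype.

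For the lists that follow, the shares over all genes were 3.13% rising and 3.51% falling in Smchd1wt embryos. In Smchd1matΔ embryos they were 1.93% and 1.14%. Of the 17 regulators 1 passed in each genotype, the ETS factor Elk3, which rose by 0.19 per somite in both. Srf itself did not pass. Of 10 heat shock genes tested in Smchd1wt embryos 1 rose, Dnajb1, by 0.10 per somite (adjusted p = 0.0256), and in Smchd1matΔ embryos none of 10 did. Of 11 hypoxia genes, 3 rose in Smchd1wt embryos, the glucose metabolism genes Pdk1, Pgk1 and Ldha, and 2 fell, Slc2a1 and Adm. In Smchd1matΔ embryos 4 of 11 rose, Pdk1, Pgk1, Ldha and Higd1a, and Slc2a1 fell.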

How the data were processed

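Total RNA was extracted from single snap-frozen tailbuds cut below the last somite in ice-cold PBS. Libraries were made with TruSeq RNA v2 or TruSeq Stranded mRNA (the kit of each library is not given in the sources used here) and sequenced as single-end reads. The authors trimmed reads with Trim Galore 0.4.4, mapped them with HISAT2 2.0.5 to GRCm38.p6 and deposited raw counts per gene from SeqMonk. Their deposited log2 RPKM values of Hox genes and their own comparison tables of fold changes and p-values were not used here. From 35591 rows, 49 with a repeated identifier were dropped and 26 names changed to dates were restored.

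Counts were filtered (filterByExpr, minimum count 10), normalised by TMM and tested with edgeR 4.0.16 (R 4.3.3), by two-sided quasi-likelihood tests with Benjamini-Hochberg adjustment over all genes tested, with a threshold of 0.05. Genotype over several stages was fitted with somite number and sex, at single stages alone. Slopes were fitted with sex. The Wald test of DESeq2 1.42.0 was an alternative. Permutation tests drew 100000 resamples (10000 where an embryo was left out) in numpy 2.4.6. The fits were checked on simulated counts. Alternatives were other size factors, no filter, the prior count, sex, marker covariates, a replicate block and leaving out libraries.

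Members and gene lists were chosen with earlier results of these data known. All members were named, with called genes of each list and the 10 genes most like Fos or most like all members. Embryos are separate animals. The deviations of same-numbered embryos of the 2 genotypes had correlations of -0.27 to 0.54, with a median of 0.02 over 16 pairs. Of these, 4 were over 0.1, among them both pairs at 9 somites (0.54 and 0.31). The numbers were not taken as pairs in the main fits.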

Additional observations from a re-analysis of the deposited data

Results flagged for a closer look

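In groups of at least 4 embryos, the highest and lowest embryo of each member were compared with the rest of the group by the gap divided by the range (Dixon's test at its 95% critical value). Of 30 such tests 6 stood out. No chance rate is set against this count, since Fos and Fosb lay at or near 0 in most embryos. The members were also measured in the same embryos, so the tests are not independent. Fos stood out in Smchd1matΔ replicate 1 at 6 somites, at 1.81 CPM, and in Smchd1wt replicate 4 at 7 somites, at 1.07 CPM. Fosb stood out in Smchd1wt replicate 1 at 6 somites, at 0.313 CPM from 4 counts, and in Smchd1matΔ replicate 1 at 6 somites, at 0.151 CPM from 1 count. In both of these groups the other 3 embryos had no Fosb count, so any single read would stand out. Smchd1matΔ replicate 1 at 6 somites, flagged for both Fos and Fosb, is also a library that stands apart. Jun stood out in Smchd1wt replicate 1 at 10 somites, at 18.2 CPM, where the other 3 embryos lay between 15.05 and 15.4 CPM. Its Poisson 95% interval, 15.5 to 21.3 CPM, overlapped theirs, which reached 17.7 CPM. That library also had the lowest summed tailbud markers of all libraries, at 704 CPM. Its summed endoderm markers were at 4256 CPM, against 175 to 685 CPM in the other 3 embryos. Their part in Jun levels was not tested. Atf3 stood out in Smchd1wt replicate 3 at 6 somites, at 3.90 CPM, where the others lay between 2.98 and 3.13 CPM.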

How the results depend on the processing

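No member passed in any of the 10 genotype comparisons, in the slope of Smchd1matΔ embryos or in the slope difference, under any alternative run, and leaving out each embryo gave 0 throughout. With a replicate block of stage and number, 0 members passed in each genotype comparison. In Smchd1wt embryos 1 member passed for slope, 3 with DESeq2 (Jun, Atf3, Ier2) and 0 with erythroid and endoderm marker sums as covariates (against 1006, 1500 and 7 of all genes), where the slope of Fos reversed to 0.029, and 1 to 2 when an embryo was left out. The 0 member pairs past the threshold became 3 with RLE size factors, 3 by Spearman correlation, 1 in Smchd1wt embryos alone, and 0 to 3 when an embryo was left out. The 2 pairs of Jun with marker lists became 0 by Spearman correlation, 1 without the 2 libraries that stand apart, 1 in Smchd1wt embryos alone, 0 in Smchd1matΔ embryos alone, and 0 to 3 when an embryo was left out. The correlation of Egr1 with Atf3 lay between -0.069 and 0.68 when an embryo was left out, the former without Smchd1matΔ replicate 3 at 6 somites. Without Smchd1wt replicate 1 at 10 somites, 3 members lay above the trend of spread, against 2 otherwise. The cause of these changes was not tested. Sex as a covariate at 6 somites was not run, since all embryos there were female. Fos, Fosb and Egr1 are limited by depth, at medians of 4, 0 and 12 counts per library.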
